A study of Arabidopsis thaliana with 6 samples.

Results

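Arabidopsis thaliana seedlings kept at 30 °C were compared with seedlings kept at 20 °C on 4 of the 6 Affymetrix ATH1 arrays of the series, taken by their labels. ATH1 is a gene expression array on which a set of short probes reports on a gene. The groups, with 1 array each, were the AtrbohB mutant and wild type, both kept at 30 °C, and the same genotypes kept at 20 °C. All plants were of accession Col-0, and each array carried RNA pooled from 90 plants. The mutant has a dSpm transposon in AtrbohB (At1g09090), a homologue of the NADPH oxidases that release reactive oxygen, and stands for this genotype as a single insertion. Plants of every group were grown on MS medium and floated on distilled water at their temperature before freezing; the labels give neither the length of this step nor the age of the seedlings. The series asks how the respiratory burst takes part in thermotolerance, and 30 °C is its middle temperature.

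Warmth short of damaging heat makes Arabidopsis seedlings stretch their stems and petioles, a growth response that runs through phytochrome, PIF transcription factors and auxin. Walls yield to growth through expansins and through xyloglucan endotransglucosylases (XTH), which cut and rejoin the xyloglucan that coats cellulose. Seedlings also make coumarins that mobilise iron, flavonols that screen ultraviolet light, and families of glutathione transferases and glycosyltransferases that tag reactive or foreign molecules.

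Values are signals on a linear scale. A change is the log2 of 30 °C over 20 °C, given with its standard error (SE), and rests on 2 arrays a temperature. The SE draws on all 6 arrays, those at 40 °C included. Signals under a floor of 13.7 were raised to it, so a change of a gene at the floor is a limit, written as "at least". A gene is called higher or lower where limma, fitted to all 6 arrays and 18227 probe sets, gave an adjusted p under 0.05. Of all probe sets tested, 14.9% were called higher and 20.7% lower at 30 °C, and the median change was -0.07; with a change of at least 2-fold as well, the shares were 7.19% higher and 6.78% lower. The first pair of shares is the background for every list below. Both 30 °C arrays lay above both 20 °C arrays for 28.9% of probe sets and below them for 40.3%. Called genes were named from these same arrays, so such a separation in them is no added support. A range in parentheses after a count is that count with 1 array left out, given where it drops by over 1.5 times. Unless another array is named, its low end came without the mutant array at 30 °C. In several lists the same low end also came without other arrays, so it does not single out the mutant array. For WRKY factors it came without any of the 4 arrays at 30 and 20 °C. Median signals of the 4 arrays lay between 38.5 and 42.5. The label of the mutant array at 20 °C gives the highest background average, 87.22, and that of the mutant array at 30 °C the lowest, 63.26; the wild-type labels give 72.54 at 30 °C and 73.29 at 20 °C. Their part in the results was not tested. No probe set is annotated to AtrbohB itself, and its transcript was not checked in the mutant here.

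Leaf markers were high on all 4 arrays. LHCB4.1, a light-harvesting protein, had signals of 2937.4 in the mutant and 2502.9 in wild type at 30 °C, against 2888.6 in the mutant and 2493.4 in wild type at 20 °C, and 0 of 10 green leaf markers were called higher and 3 lower (0 to 1), with a median change of 0.01. PYK10, a root beta-glucosidase, had 1993.5 to 2158.4 at 30 °C against 2587.4 to 2684.3 at 20 °C and fell by 0.35 (limma adjusted p = 0.0375), a call lost on centring (adjusted p = 0.191) and with any 1 array left out (highest adjusted p = 0.245, without the mutant at 20 °C). The root hair expansins EXPA7 and EXPA18 had changes of 0.49 and 0.09. The seed storage genes OLEO3 and PAP85 stayed between 13.1 and 25 at 30 and 20 °C. Fewer cells of a type and less RNA per cell cannot be told apart in such samples. Of 7 genes listed for anther and pollen, 2 rose (1 in each case), among them SETH3, with 391.9 to 416.6 at 30 °C against 172.9 to 193.5 at 20 °C.

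**Figure D1:**
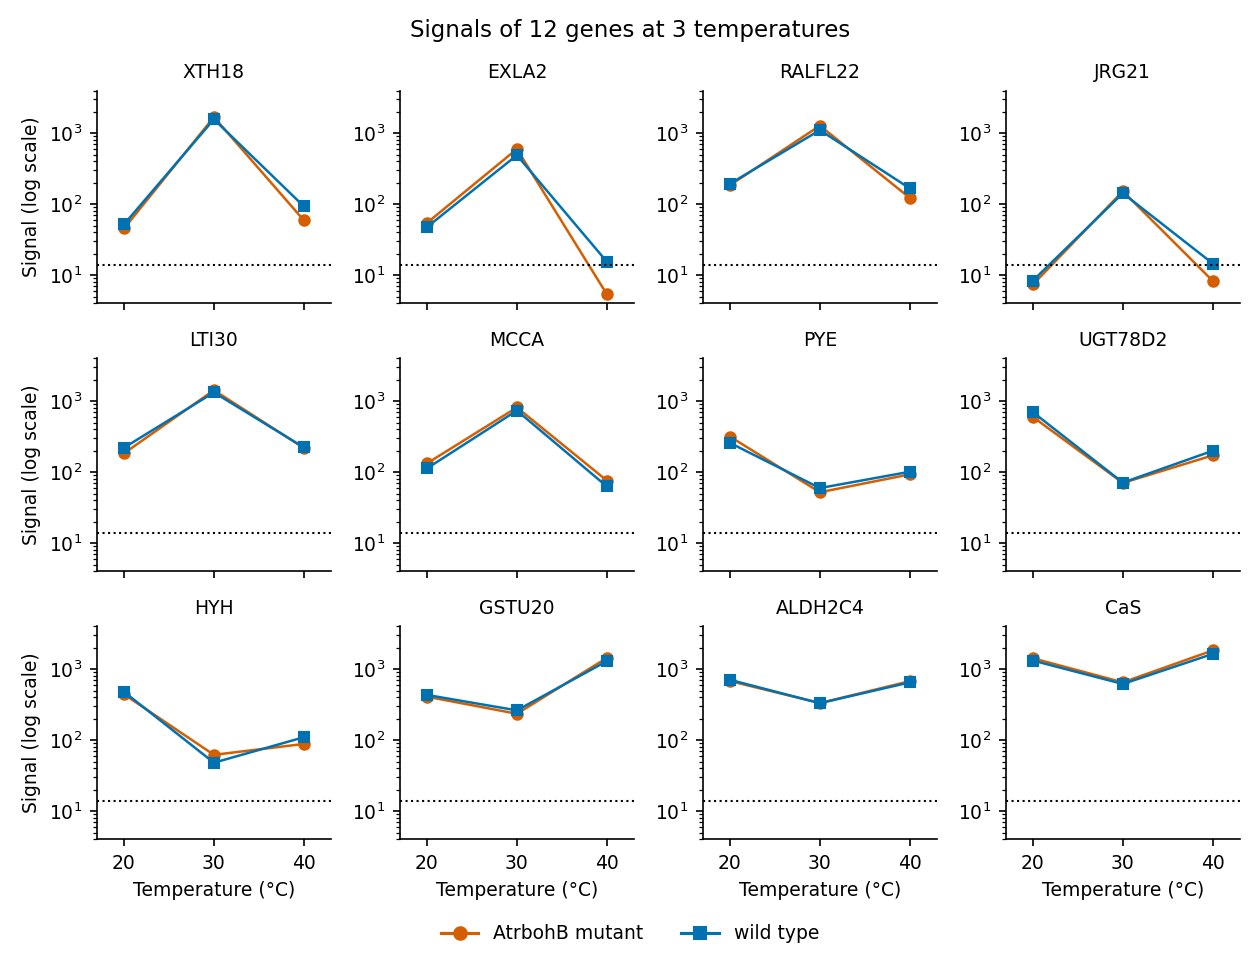
Signals of 12 genes (y axis, log scale, array units) at 20, 30 and 40 °C (x axis) in the AtrbohB mutant (orange circles) and wild type (blue squares), 1 array per point, with the floor of 13.7 as a dotted line. XTH18, EXLA2, RALFL22, JRG21, LTI30 and MCCA peak at 30 °C in both genotypes, while PYE, UGT78D2, HYH, GSTU20, ALDH2C4 and CaS have their lowest point there.

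The largest rises at 30 °C after those of heat shock proteins and their partners fell mostly on loci without a name in the annotation. Among the 40 genes with the steepest called changes, 20 in each direction, 36 carry no symbol. AT1G15010 had signals of 1781.5 in the mutant and 1470.7 in wild type at 30 °C, against 20.5 in the mutant and 34 in wild type at 20 °C, a change of 5.94 ± 0.32 (limma adjusted p = 6.56e-06). AT5G62360 had 528.3 to 529.3 at 30 °C against 9.6 to 17.3 at 20 °C, and AT2G23110 had 327.2 to 454.4 at 30 °C against 1.3 to 2.2 at 20 °C. Both 30 °C arrays of these loci lay far above both 20 °C arrays. AT5G05600 and AT2G38240 rose by 5.25 and 5.17, and AT2G34930, AT1G50040 and AT5G62280 by 4.33, 4.36 and at least 4.16. At 40 °C these last 5 genes were lower again than at 30 °C, by 2.12 to 5.00. Of all probe sets called at least 2-fold higher at 30 °C, 82.4% were lower at 40 than at 30 °C. AT3G10020, by contrast, had 1111.9 to 1209.8 at 30 °C against 59.8 to 60.5 at 20 °C and rose further to 1911.3 to 1982.6 at 40 °C.

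The largest falls, too, lay mostly on unnamed loci. AT1G47400 had signals of 39.5 in the mutant and 40.3 in wild type at 30 °C, against 1323.5 in the mutant and 1091.5 in wild type at 20 °C, a change of -4.91 ± 0.16 (limma adjusted p = 9.99e-07). AT5G20790 was at the floor on both 30 °C arrays, against 368.5 to 375.8 at 20 °C, and a lower limit of its change is that it fell by 4.76. AT1G55960 had 124.5 to 145.8 at 30 °C against 1377.1 to 1439.6 at 20 °C, AT4G24780 had 63.2 to 85.9 at 30 °C against 817.8 to 828.8 at 20 °C and AT3G56370 had 48.4 to 49.7 at 30 °C against 358.1 to 375.3 at 20 °C. No 30 °C value of these loci came near a 20 °C value. AT3G44450 fell by 3.38 at 30 °C and stood at 183.9 to 218.8 at 40 °C, close to its 20 °C signals of 175.8 to 211.7.

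Among growth genes, enzymes that rework xyloglucan rose. Of 7 tested XTH genes, 4 rose and 1 fell, with a median change of 1.60. XTH18, which codes for such an endotransglucosylase, had signals of 1690.8 in the mutant and 1573.0 in wild type at 30 °C, against 45.5 in the mutant and 52 in wild type at 20 °C. Its change was 5.07 ± 0.17 (limma adjusted p = 1.09e-06), with no overlap between temperatures. XTH33 had 194.9 to 216.8 at 30 °C against 14.3 to 28 at 20 °C, XTH16 981.9 to 1135.6 at 30 °C against 144.3 to 174.5 at 20 °C and XTH19 267.9 to 275.8 at 30 °C against 82.8 to 96.7 at 20 °C, which gives changes of 3.36, 2.73 and 1.60. XTH32 ran the other way, with 230.9 to 242.7 at 30 °C against 587.5 to 590.5 at 20 °C (a change of -1.32 ± 0.10), and EXGT-A3, the most strongly measured member without a call, had 0.25. Of the 7, 6 were lower at 40 than at 30 °C, against 17.8% of all probe sets in that comparison. Among probe sets called at least 2-fold higher at 30 °C, as 4 of the 7 were, that share was 82.4%. XTH33 lost its call without the mutant array at 30 °C (adjusted p = 0.058).

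Expansins, which loosen walls without cutting them, split within the family. The list of expansins and EXORDIUM genes held 17 tested members, of which 5 rose and 6 fell (3 to 4), with a median of -0.13. The expansin-like A genes rose together: EXLA1 had 1342.6 to 1809.8 at 30 °C against 112.1 to 117.8 at 20 °C, EXLA2 490.9 to 599.1 at 30 °C against 47.6 to 54.5 at 20 °C and EXLA3 61.9 to 82.1 at 30 °C against 6.8 to 8.5 at 20 °C. EXORDIUM (EXO), a wall protein of brassinosteroid-promoted growth, had 3103.8 in the mutant and 2600.0 in wild type at 30 °C, against 377.5 in the mutant and 305.4 in wild type at 20 °C, a change of 3.06 ± 0.26. The expansins EXPB3, EXPA8 and EXPA15 fell by 2.06, 1.69 and 1.56, with EXPB3 at 41.2 to 55.7 at 30 °C against 196.2 to 202.7 at 20 °C. EXPA16 was the only expansin proper called higher, by at least 2.01 from the floor. EXLA1 lost its call without the mutant array at 30 °C (adjusted p = 0.0534). Within each genotype the median of the list lay on opposite sides of 0, at -0.28 in the mutant and 0.11 in wild type.

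Other wall genes followed in both directions. CSLC04, a synthase of the xyloglucan backbone, had 539.3 in the mutant and 589.5 in wild type at 30 °C, against 134.1 in the mutant and 131.1 in wild type at 20 °C, a change of 2.09 ± 0.12 (limma adjusted p = 1.12e-05). CSLA03, a glucomannan synthase, rose by 1.54, and COB, the COBRA protein that orients cellulose, by 0.77. In all, 5 of 11 cellulose and hemicellulose genes rose and 2 fell (0 to 1). Of 11 cellulases of family GH9, 0 rose and 2 fell (1 to 2): GH9C2, with 42.7 to 56 at 30 °C against 248.8 to 254.0 at 20 °C, changed by -2.36 ± 0.14, and GH9B8 by -1.33 ± 0.21. GH9B8 was not called without the mutant array at 30 °C (adjusted p = 0.0595). Of 21 TRICHOME BIREFRINGENCE-LIKE genes, whose products acetylate wall polymers, 5 rose (1 to 2) and 4 fell (0 to 4).

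All 3 tested members of the list of receptor-like kinases were called higher: the wall sensors FER and THE1, and BIK1, a cytoplasmic kinase of immunity. FERONIA (FER), a receptor of RALF peptides, had 1024.1 in the mutant and 890.7 in wild type at 30 °C, against 339.4 in the mutant and 391.8 in wild type at 20 °C, a change of 1.39 ± 0.14 (limma adjusted p = 1.85e-04). THESEUS1 (THE1), which restrains growth when cellulose is lacking, had 423.2 to 439.9 at 30 °C against 132.2 to 139.0 at 20 °C, a change of 1.67 ± 0.16. BIK1 had 167.5 to 187.0 at 30 °C against 76.9 to 82.3 at 20 °C, a change of 1.15 ± 0.16, and lost its call when the mutant at 30 °C or wild type at 30 °C was left out (highest adjusted p = 0.0652). RALFL22, a peptide of the family that FERONIA binds, had 1106.3 to 1277.9 at 30 °C against 185.3 to 194.3 at 20 °C, a change of 2.65 ± 0.15. Of 10 listed RALF and CLE peptides, however, 1 rose (0 to 1) and 3 fell (0 to 2), with a median of -0.45. RALFL22 stands outside that list, since its gene could not be matched to a locus. Of 13 tetraspanins, membrane proteins of vesicles and cell contacts, 4 rose (1 to 4) and 1 fell (0 in each case); TET8, a tetraspanin of exosomes, had 1264.5 to 1299.9 at 30 °C against 413.4 to 428.1 at 20 °C (adjusted p = 0.0591 without the mutant array at 30 °C, which ended its call).

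Of 7 histone genes, 4 fell (1 to 3) and 1 rose (0 to 1), with a median of -0.68. HTB1, a histone H2B, had 56 in the mutant and 59.3 in wild type at 30 °C, against 183.0 in the mutant and 159.8 in wild type at 20 °C, a change of -1.57 ± 0.14 (limma adjusted p = 7.36e-05). Another 4 genes, named after their values were seen, act in stomata, trichomes and flowering. STOMAGEN, the peptide that promotes stomata, had 106.2 to 117.7 at 30 °C against 227.8 to 241.6 at 20 °C, a change of -1.07 ± 0.12. GIS, a zinc finger activator of trichomes on stems and flowers, fell by at least 1.81, and TRY, a repressor of trichomes, by 1.58. TRY lost its call without the wild-type array at 30 °C (adjusted p = 0.0547). SMZ, an AP2 repressor of flowering, had 33.1 to 37.9 at 30 °C against 141.7 to 142.0 at 20 °C, a change of -2.0 ± 0.19. On each of these 5 genes both 30 °C arrays lay below both 20 °C arrays, as for 40.3% of all probe sets. The genes were named from the same arrays, which enters this separation.

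**Figure D2:**
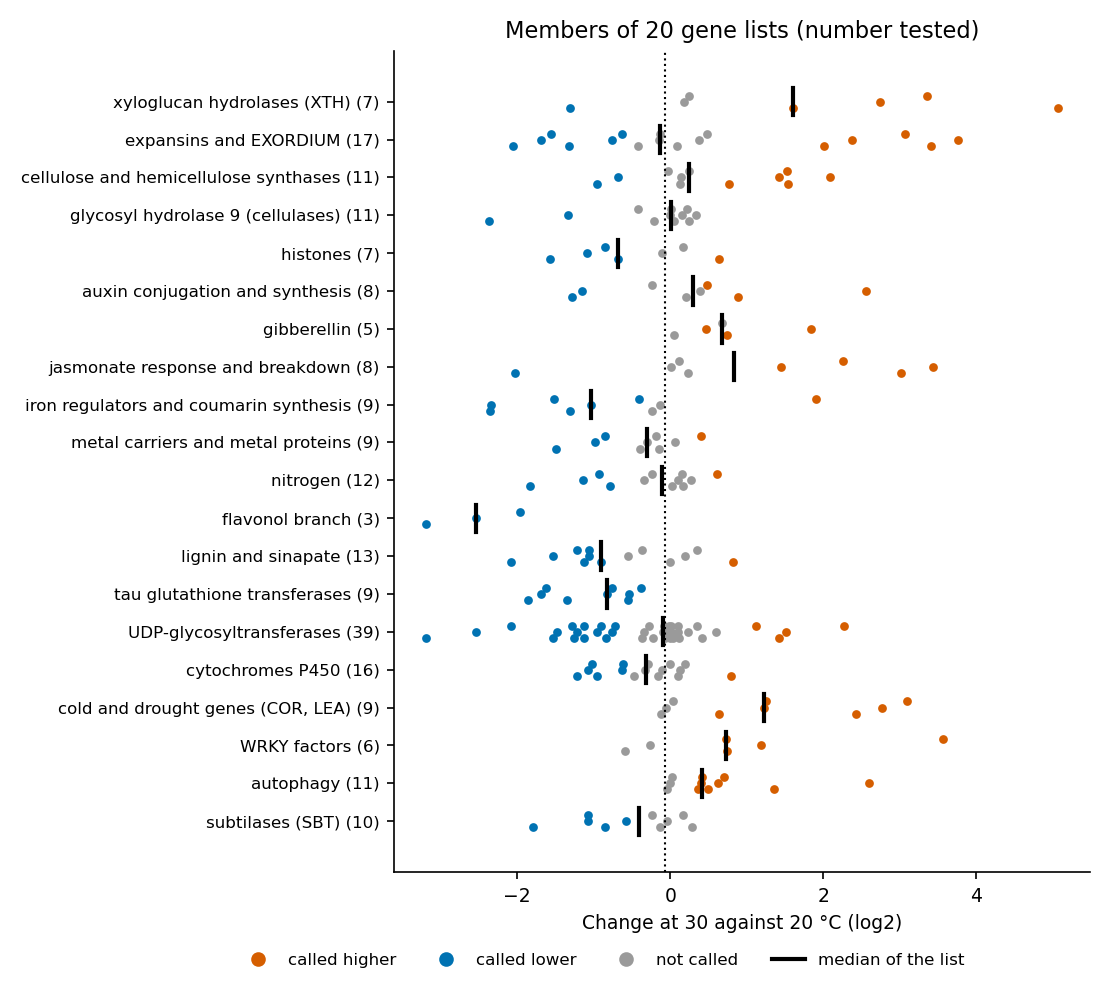
Change at 30 against 20 °C (x axis, log2) of each tested member of 20 gene lists (rows), with members called higher in orange, called lower in blue and not called in grey; a black bar marks the median of a list and the dotted line the median of all probe sets, -0.07. The tau glutathione transferases lie wholly on the lower side, the XTH, autophagy and cold gene lists mostly on the upper side.

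Genes of auxin conjugation and synthesis held calls in both directions, as did all probe sets (14.9% higher and 20.7% lower). Of 8 tested genes of auxin conjugation and synthesis, 3 rose (1 to 2) and 2 fell (1 to 2). GH3.3, which joins auxin to amino acids, had signals of 374.6 in the mutant and 305.1 in wild type at 30 °C, against 60.4 in the mutant and 54.4 in wild type at 20 °C, a change of 2.56 ± 0.15 (limma adjusted p = 9.80e-06). UGT74D1, a glucosyltransferase of auxin, had 188.2 to 216.8 at 30 °C against 483.8 to 498.5 at 20 °C, a change of -1.28 ± 0.10. IAGLU, which also joins auxin to glucose but is not counted in the list, had 165.0 to 169.3 at 30 °C against 500.1 to 509.7 at 20 °C, a change of -1.59 ± 0.13. YUC6, an enzyme of auxin synthesis and the other called fall of the list, was at the floor at 30 °C, against 29.0 to 31.9 at 20 °C, so that it fell by at least 1.15. That call was lost with the higher floor (adjusted p = 0.369) and without the mutant array at 30 °C (adjusted p = 0.0517). HAT2, a homeodomain factor that auxin switches on, rose to 218.6 to 243.4 at 30 °C, against 75.4 to 84.7 at 20 °C, a change of 1.53 ± 0.12. Of the early auxin genes, IAA18 fell by 0.50, a call lost when the mutant at 30 or 20 °C or wild type at 30 or 20 °C was left out (highest adjusted p = 0.116, without wild type at 20 °C), and IAA29, near the floor, had 16.8 to 23 at 30 °C against 11.1 to 14.4 at 20 °C.

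Gibberellin and ethylene genes with a call were higher. Of 3 ethylene genes, 2 rose (1 to 2) and 0 fell; with the 4 arrays alone, 1 rose. Of 5 gibberellin genes, 3 rose (0 to 2, lowest without wild type at 30 °C) and 0 fell, with a median of 0.67. GID1B, a gibberellin receptor, had 91.2 in the mutant and 113.8 in wild type at 30 °C, against 25 in the mutant and 32.6 in wild type at 20 °C, a change of 1.84 ± 0.24 (limma adjusted p = 6.14e-04), and the call was lost without the wild-type array at 30 °C (adjusted p = 0.0512). ARL, an ARGOS-like protein of cell expansion listed with ethylene, had 411.2 to 458.7 at 30 °C against 66.8 to 81.8 at 20 °C, a change of 2.55 ± 0.12. TINY (tny), a DREB factor, had 201.2 to 217.5 at 30 °C against 78 to 81 at 20 °C, a change of 1.4 ± 0.16. XERICO, a RING protein that raises abscisic acid, had 193.3 to 224.2 at 30 °C against 90.7 to 95.6 at 20 °C, a change of 1.16 ± 0.14. None of these pairs of arrays overlapped between the temperatures, but the genes were named from the same arrays.

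Part of the jasmonate genes rose, and 1 regulator fell. OPCL1, which activates a jasmonate precursor, had 245.4 in the mutant and 219.5 in wild type at 30 °C, against 36.4 in the mutant and 42.3 in wild type at 20 °C, a change of 2.56 ± 0.21 (limma adjusted p = 6.15e-05). Of 8 tested jasmonate response genes, 4 rose (2 to 4, lowest without wild type at 20 °C) and 1 fell, with a median of 0.84. The same low end came without wild type at 30 or 40 °C or the mutant at 40 °C. With the 4 arrays alone, 2 rose. Among probe sets above the floor on all 6 arrays, 4 of the jasmonate response genes were left, of which 1 rose and 1 fell. JRG21, a jasmonate-regulated gene, had 142.9 to 152.5 at 30 °C against 7.4 to 8.4 at 20 °C, a rise of at least 3.43. The defensin gene PDF1.4 had 138.9 to 174.6 at 30 °C against 18.9 to 19.7 at 20 °C, and PDF1.2b had 57.7 to 206.4 at 30 °C against 18.9 to 27.6 at 20 °C. PDF1.2b rested mostly on wild type, with 57.7 in the mutant against 206.4 in wild type at 30 °C. It is read by a probe set marked as cross-hybridising, and its call was lost when the mutant at 30 or 40 °C or wild type at 30, 20 or 40 °C was left out (highest adjusted p = 0.178, without wild type at 30 °C). MYC4, a transcription factor of jasmonate signalling, had 28.9 to 34.5 at 30 °C against 113.5 to 146.7 at 20 °C, a change of -2.03 ± 0.20, while its relative MYC3 had 0.01.

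Light signalling supplied 2 of the steepest falls among genes with a symbol, HYH and AFR. The list of light and temperature growth factors, however, had 2 tested genes, of which 1 rose and 1 fell. The riser was HAT2, given above with auxin (a change of 1.53), and the other was HYH. AFR was named for the size of its fall. HYH is a bZIP factor and the close homologue of HY5, a transcription factor of light signalling. HYH had 62.2 in the mutant and 48.2 in wild type at 30 °C, against 442.9 in the mutant and 480.1 in wild type at 20 °C. Its change was -3.07 ± 0.17 (limma adjusted p = 8.37e-06). AFR, an F-box protein of phytochrome A signalling, had 119.1 to 125.5 at 30 °C against 661.8 to 748.3 at 20 °C, a change of -2.53 ± 0.12. Both were well apart between temperatures and partly recovered at 40 °C, where HYH had 88.6 to 110.1 and AFR 271.2 to 310.1. The clock gene GI had 0.04.

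Genes of iron regulation mostly fell. Of 9 tested genes of iron regulation and coumarin synthesis, 6 fell (3 to 5) and 1 rose, with a median of -1.03. POPEYE (PYE), a bHLH factor of the iron deficiency response, had signals of 52.2 in the mutant and 59.8 in wild type at 30 °C, against 317.4 in the mutant and 258.9 in wild type at 20 °C, a change of -2.36 ± 0.16 (limma adjusted p = 1.98e-05). F6'H1, the hydroxylase that makes the coumarin scopoletin, had 80.7 in the mutant and 66.3 in wild type at 30 °C, against 327.6 in the mutant and 417.2 in wild type at 20 °C, a change of -2.34 ± 0.15. BHLH101, an iron deficiency factor, had 28.2 to 37.4 at 30 °C against 81 to 107.4 at 20 °C, and bHLH34, a factor upstream of it, 39.3 to 53.4 at 30 °C against 110.3 to 115.9 at 20 °C. The exception was bHLH121, a factor that activates the iron deficiency response, which rose with 162.7 to 176.6 at 30 °C against 44.1 to 46.8 at 20 °C, a change of 1.90 ± 0.18. The related factors ILR3 and bHLH104 had changes of -0.13 and -0.24 and no call. BHLH101 lost its call without the mutant array at 30 °C (adjusted p = 0.0564) or at 20 °C (adjusted p = 0.0558). bHLH115, the smallest called fall of the list (-0.40), was lost on centring (adjusted p = 0.0633) and with any array left out (highest adjusted p = 0.194, without the mutant at 30 °C).

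Metal and nutrient carriers had fewer calls. Of 9 metal carriers and metal proteins, 3 fell (1 to 2) and 1 rose (0 in each case). MTP11, a manganese carrier of the Golgi, had 223.5 in the mutant and 199.5 in wild type at 30 °C, against 599.7 in the mutant and 583.1 in wild type at 20 °C, a change of -1.49 ± 0.11 (limma adjusted p = 3.15e-05), and was lower still at 40 °C, with 85.8 to 86.5. Mfl1, a mitoferrin-like protein of the chloroplast, had 75 to 76.9 at 30 °C against 174.3 to 203.8 at 20 °C, a change of -1.31 ± 0.13. The metallothionein MT1C had 1806.4 to 2228.8 at 30 °C against 2212.7 to 2352.1 at 20 °C and no call. Of 12 genes of nitrogen transport and assimilation, 4 fell (2 to 4) and 1 rose (0 in each case), with medians of -0.48 in the mutant and 0.13 in wild type. NPF6.4, a nitrate carrier, had 450.6 in the mutant and 493.7 in wild type at 30 °C, against 1568.3 in the mutant and 1786.8 in wild type at 20 °C, a change of -1.83 ± 0.09 (limma adjusted p = 5.78e-06). NPF6.2, another nitrate carrier, had 303.9 to 388.8 at 30 °C against 632.0 to 678.4 at 20 °C, a change of -0.93 ± 0.14. In sulfate assimilation, sulfite reductase (SIR) fell by 0.62 and APS3, an ATP sulfurylase, rose by 0.48. The call of SIR was lost without either mutant array at 30 °C (adjusted p = 0.0625) or at 20 °C (adjusted p = 0.0535), and that of APS3 with any array left out (highest adjusted p = 0.193, without wild type at 20 °C).

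Genes listed for the flavonol branch fell, and those listed for the anthocyanin branch did not pass the test. The lists do not part the branches fully, since UGT78D2, listed with flavonols, also acts on anthocyanidins. All 3 tested genes listed for the flavonol branch were lower, with a median of -2.53. UGT78D2, the flavonoid 3-O-glucosyltransferase, had signals of 70.6 in the mutant and 71.3 in wild type at 30 °C, against 600.1 in the mutant and 700.3 in wild type at 20 °C, a change of -3.19 ± 0.11 (limma adjusted p = 1.14e-06). UGT78D1, the flavonol rhamnosyltransferase, had 32 in the mutant and 36.4 in wild type at 30 °C, against 186.2 in the mutant and 209.0 in wild type at 20 °C, a change of -2.53 ± 0.14. CHIL, a chalcone isomerase-like protein that aids flavonol synthesis, had 119.5 to 150.7 at 30 °C against 507.8 to 534.9 at 20 °C, a change of -1.96 ± 0.23, and lost its call without the mutant array at 30 °C (adjusted p = 0.0501). The 3 genes were higher at 40 than at 30 °C and still below 20 °C. The rise held for 24.9% of all probe sets, but for 70.4% of those at least 2-fold lower at 30 °C, as all 3 were. Dihydroflavonol reductase (DFR), of the anthocyanin branch, had 50.2 to 64.6 at 30 °C against 42.9 to 45.8 at 20 °C, and UF3GT, an anthocyanin xylosyltransferase, had 24.2 to 28.4 at 30 °C against 22.1 to 26.5 at 20 °C. Neither was called, with changes of 0.36 and 0.12.

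Enzymes that make or glucosylate lignin precursors and sinapate mostly fell. Of 13 tested, 7 were lower and 1 higher (0 in each case), with a median of -0.90. ALDH2C4, the aldehyde dehydrogenase of ferulate and sinapate synthesis, had 333.4 in the mutant and 332.1 in wild type at 30 °C, against 681.1 in the mutant and 708.9 in wild type at 20 °C, a change of -1.06 ± 0.10 (limma adjusted p = 8.77e-05). HCT, an acyltransferase of the lignin pathway, had 413.2 to 417.9 at 30 °C against 816.7 to 918.2 at 20 °C, a change of -1.06 ± 0.11. UGT72E1, which glucosylates lignin alcohols, had 68 to 76.6 at 30 °C against 201.0 to 218.4 at 20 °C, and UGT72E2, of the same activity, 39.7 to 53.1 at 30 °C against 89.3 to 111.5 at 20 °C. GT72B1, which glucosylates lignin precursors and foreign phenols, had 74.7 to 76.9 at 30 °C against 316.2 to 323.5 at 20 °C, a change of -2.08 ± 0.12. UGT84A3, a glucosyltransferase of sinapate, fell by 1.22. For each of these 6 genes the 30 °C arrays lay below the 20 °C arrays in both genotypes, as for 40.3% of all probe sets. Of the 6, 5 were called higher at 40 than at 30 °C, against 24.9% of all probe sets. Being low at 30 °C, on which they were named, enters both counts.

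**Figure D3:**
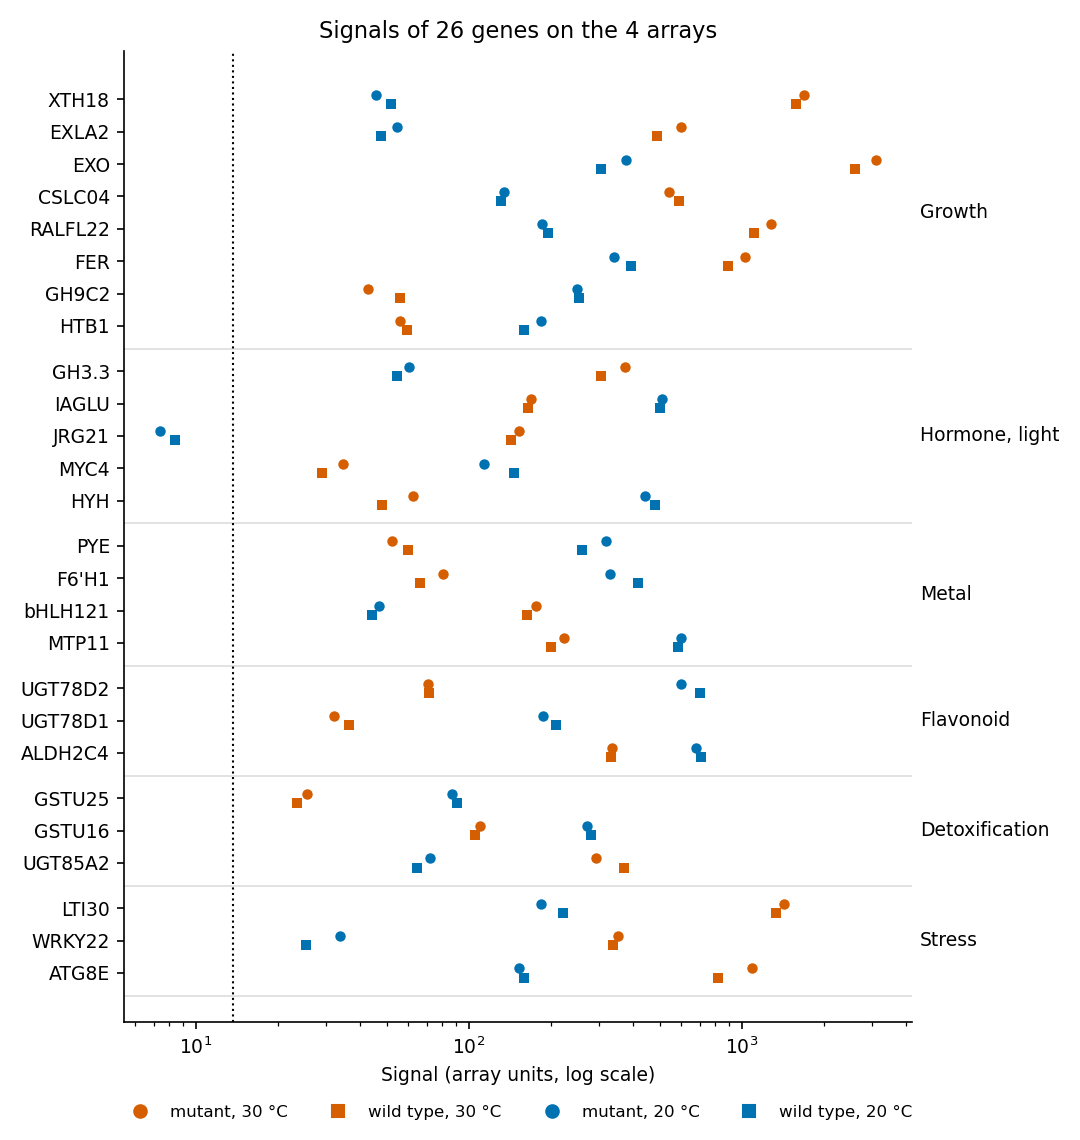
Signal (x axis, log scale, array units) of 26 genes (rows, grouped by theme) at 30 °C (orange) and 20 °C (blue) in the AtrbohB mutant (circles) and wild type (squares), 1 array per point. The dotted line is the floor of 13.7. In every row the 2 points of 30 °C lie on 1 side of the 2 points of 20 °C. All 26 genes shown were called, which enters this separation.

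Glutathione transferases of the tau class, which join glutathione to reactive molecules, were lower. All 9 tested were called lower (3 to 7), with a median of -0.82; 2 further tau genes had too low signals to be tested. GSTU25 had signals of 25.5 in the mutant and 23.5 in wild type at 30 °C, against 86.7 in the mutant and 90.5 in wild type at 20 °C, a change of -1.86 ± 0.19 (limma adjusted p = 1.55e-04). GSTU16 had 105.6 to 110.1 at 30 °C against 270.6 to 281.0 at 20 °C, GSTU22 35.1 to 43 at 30 °C against 117.9 to 132.1 at 20 °C and GSTU20 235.6 to 263.2 at 30 °C against 410.4 to 434.1 at 20 °C. At 40 °C, 7 of the 9 were called higher than at 30 °C, GSTU20 the most, with 1300.3 to 1442.5. That share was 24.9% over all probe sets but 61.1% over those called lower at 30 °C, as all 9 were. The 3 phi and other glutathione transferases had no call, the nearest being GSTL3 (-0.35, adjusted p = 0.0587). The smallest changes were the least certain: GSTU26 (-0.55) and GSTU18 (-0.39) were lost on centring (adjusted p = 0.0585 and 0.112) and on quantile normalization (0.0647 and 0.0614). Both were also lost with any 1 array left out (highest adjusted p = 0.259 and 0.305, without the mutant array at 20 °C and wild type at 20 °C), and GSTU20 was lost without the mutant array at 30 °C (adjusted p = 0.0586).

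Glycosyltransferases and cytochromes P450 went down more often than up. Of 39 UDP-glycosyltransferases, 15 fell (8 to 14) and 4 rose, with a median of -0.09; the falls include UGT78D2, UGT78D1, UGT72E1 and UGT74D1. UGT85A2 stood against them, with 291.4 in the mutant and 370.9 in wild type at 30 °C, against 72.1 in the mutant and 64.3 in wild type at 20 °C, a change of 2.27 ± 0.17 (limma adjusted p = 3.57e-05), as did its relative UGT85A4, below the floor at 20 °C (2.7 to 8.6) and at 37.2 to 41.2 at 30 °C. UGT71B1 had 32.9 to 57.6 at 30 °C against 115.8 to 127.9 at 20 °C, a change of -1.48 ± 0.23, and was not called without the mutant array at 30 °C (adjusted p = 0.0528). Of 16 cytochromes P450, 6 fell (1 to 4) and 1 rose (0 to 1); CYP71B6 had 90.8 to 107.4 at 30 °C against 210.8 to 249.3 at 20 °C, a change of -1.21 ± 0.15. Of 15 genes of carbonyl and quinone reduction, 9 fell (2 in each case) and 1 rose (0 to 1); on centring, 4 of the 15 fell. The riser was ALDH6B2, an aldehyde dehydrogenase of valine breakdown, with 522.2 to 528.2 at 30 °C against 373.5 to 379.7 at 20 °C; its call was lost when the mutant at 30 or 20 °C or wild type at 30 or 20 °C was left out (highest adjusted p = 0.161, without wild type at 30 °C).

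Class III peroxidases held calls in both directions, as did methionine sulfoxide reductases, which repair oxidised proteins. Counts this small do not set these 2 families apart from all probe sets, of which 14.9% were called higher and 20.7% lower. Of 6 class III peroxidases, 2 fell (1 to 2) and 1 rose. PRXR1 had 587.6 in the mutant and 650.7 in wild type at 30 °C, against 1396.6 in the mutant and 1380.9 in wild type at 20 °C, a change of -1.17 ± 0.12 (limma adjusted p = 1.83e-04), whereas PRX71, a wall peroxidase, had 321.3 to 366.9 at 30 °C against 135.9 to 155.2 at 20 °C, a change of 1.24 ± 0.15. Of 5 methionine sulfoxide reductases, 1 rose and 1 fell (0 to 1): MSRB9 had 446.4 to 508.3 at 30 °C against 172.4 to 207.2 at 20 °C, a change of 1.33 ± 0.11, and MSRB5 had 325.5 to 385.7 at 30 °C against 477.9 to 517.4 at 20 °C, a change of -0.49 ± 0.10. MSRB5 lost its call without the mutant array at 30 °C (adjusted p = 0.0826), the mutant at 20 °C (0.0838) or wild type at 20 °C (0.0591). The 6 ascorbate and glutathione enzymes had a median of -0.54, with 4 lower (2 to 4) and 0 higher. All 6 were called higher at 40 than at 30 °C, against 24.9% of all probe sets and 61.1% of those called lower at 30 °C.

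Cold and drought genes were higher in the warm seedlings. Of 9 tested COR and LEA genes, 6 rose (3 to 6) and 0 fell, with a median of 1.23. LTI30, a dehydrin known from cold and drought, had signals of 1428.7 in the mutant and 1331.2 in wild type at 30 °C, against 184.4 in the mutant and 221.3 in wild type at 20 °C, a change of 2.77 ± 0.11 (limma adjusted p = 2.43e-06). COR15B, which protects chloroplast membranes in freezing plants, had 92.5 to 104.0 at 30 °C against 38.8 to 45 at 20 °C, a change of 1.23 ± 0.19, and LEA26 had 839.1 to 866.6 at 30 °C against 515.6 to 583.0 at 20 °C. LEA4-5, near the floor at 20 °C, had 36.6 to 40 at 30 °C against 10.6 to 18.7 at 20 °C. The dehydration genes RD2 and DI21 did not pass the test (0.03 and -0.12). Without the mutant array at 30 °C the calls of COR15B (adjusted p = 0.0784), LEA26 (0.0586) and LEA4-5 (0.0563) were lost. COR15B (0.0749) and LEA4-5 (0.057) were also lost without wild type at 30 °C, and LEA26 (0.0516) without the mutant at 20 °C.

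Listed WRKY and bZIP transcription factors with a call were mostly higher. Of 6 WRKY factors, 4 rose (1 to 3) and 0 fell. WRKY22, a factor of pattern-triggered immunity, had 350.7 in the mutant and 337.4 in wild type at 30 °C, against 33.6 in the mutant and 25.4 in wild type at 20 °C, a change of 3.56 ± 0.22 (limma adjusted p = 1.51e-05). Of 17 bZIP factors, 5 rose (2 to 4) and 1 fell (0 to 1). HYH, also a bZIP factor, stands outside this list and had a change of -3.07. BZIP61 had 130.3 to 144.6 at 30 °C against 14.8 to 29.1 at 20 °C, a change of 2.73 ± 0.23. BZIP53, a factor of amino acid breakdown under low energy, had 778.5 to 904.0 at 30 °C against 263.3 to 267.2 at 20 °C, a change of 1.66 ± 0.18; the call was lost without the mutant array at 30 °C (adjusted p = 0.0527). bZIP19, which controls zinc uptake genes, fell by 0.72, a call also lost without that array (adjusted p = 0.0688).

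Another 5 genes outside the lists were taken up after their values were seen, as genes that had risen. MCCA, a subunit of the enzyme that breaks down leucine, had signals of 817.3 in the mutant and 738.9 in wild type at 30 °C, against 133.1 in the mutant and 113.2 in wild type at 20 °C, a change of 2.66 ± 0.11 (limma adjusted p = 2.37e-06). ETFQO, which passes electrons from leucine and lysine breakdown to respiration, had 236.9 to 288.1 at 30 °C against 91.9 to 106.8 at 20 °C, a change of 1.4 ± 0.15. MGL, which breaks down methionine, had 169.3 to 187.0 at 30 °C against 75.2 to 81.4 at 20 °C, a change of 1.19 ± 0.15. SDP1, the lipase of stored oil, had 199.3 to 265.6 at 30 °C against 56.9 to 60.2 at 20 °C, a change of 1.97 ± 0.16. AKINBETA1, a subunit of the energy sensor SnRK1, had 583.2 to 645.3 at 30 °C against 150.7 to 150.8 at 20 °C, a change of 2.02 ± 0.11. All 5 were lower at 40 than at 30 °C, with MCCA at 63 to 76.3. So were 82.4% of all probe sets called at least 2-fold higher at 30 °C, a class that holds these 5. Of 28 genes of sugar transport and starch, 7 fell (2 to 5) and 2 rose (0 to 2); SWEET2, a sugar carrier of the vacuole, had 295.5 to 326.7 at 30 °C against 621.9 to 622.2 at 20 °C, a change of -1.0 ± 0.11, and PWD, a kinase of starch breakdown, had 88.2 to 107.4 at 30 °C against 195.7 to 208.0 at 20 °C, a change of -1.05 ± 0.13.

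Autophagy genes and part of the vesicle genes rose. Of 11 autophagy genes, 8 rose (2 to 4) and 0 fell, with a median of 0.42. ATG8E, a ubiquitin-like protein of the autophagosome membrane, had 1087.7 in the mutant and 820.1 in wild type at 30 °C, against 152.4 in the mutant and 159.4 in wild type at 20 °C, a change of 2.6 ± 0.13 (limma adjusted p = 5.69e-06). ATG8H had 171.3 to 179.0 at 30 °C against 66.7 to 70 at 20 °C, a change of 1.36 ± 0.14, and ATG8F 735.5 to 796.1 at 30 °C against 457.8 to 485.6 at 20 °C, a change of 0.70 ± 0.10 that was not called without the mutant array at 30 °C (adjusted p = 0.0546). Of 36 genes of vesicle traffic, 12 rose (5 to 9) and 3 fell (0 to 1). VPS2.1, of the ESCRT machinery that sorts membrane proteins, had 423.7 to 475.2 at 30 °C against 102.9 to 125.0 at 20 °C, a change of 1.98 ± 0.16. VPS60.1, of the same machinery, had 198.4 to 201.6 at 30 °C against 39.1 to 42.5 at 20 °C, a change of 2.29 ± 0.17. SEC15B, an exocyst subunit, had 203.2 to 226.1 at 30 °C against 78.6 to 91 at 20 °C, a change of 1.34 ± 0.14. Of 11 genes of endoplasmic reticulum stress, 4 rose and 1 fell (0 in each case), among them DER1, of the pathway that exports misfolded proteins, with 260.4 to 304.6 at 30 °C against 129.8 to 132.0 at 20 °C.

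Thermotolerance genes other than heat shock proteins were also higher: of 6 listed BAG and thermotolerance genes, 4 rose and 0 fell. HSA32, which keeps acquired thermotolerance, had 446.7 in the mutant and 428.5 in wild type at 30 °C, against 61.9 in the mutant and 51.4 in wild type at 20 °C, a change of 2.96 ± 0.15 (limma adjusted p = 4.81e-06), and held 344.4 to 427.7 at 40 °C. TIL, a lipocalin of membranes, had 2423.4 to 2816.5 at 30 °C against 555.3 to 619.7 at 20 °C, and Fes1A, a partner of HSP70, 1032.8 to 1056.0 at 30 °C against 214.7 to 272.9 at 20 °C. Both rose (2.15 ± 0.11 and 2.11 ± 0.12) and were lower at 40 than at 30 °C. Fes1B had 34.9 to 55.7 at 30 °C against 32.4 to 36.7 at 20 °C and no call.

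U-box ligases and calmodulin-like proteins held calls in both directions, as did all probe sets (14.9% higher and 20.7% lower), and 5 of 10 subtilases fell. Of 8 plant U-box ligases, 3 rose (0 to 2) and 1 fell (0 to 1); PUB19, a U-box protein of drought responses, had 27 to 31.6 at 30 °C against 85.2 to 94.1 at 20 °C, a change of -1.62 ± 0.20, and lost its call without wild type (0.0509) or the mutant (0.0574, both adjusted p) at 30 °C. Of 18 calmodulin-like and calmodulin-binding genes, 5 rose (1 to 4) and 3 fell (0 to 1). IQD22 had 92.6 to 96.2 at 30 °C against 12.4 to 14.2 at 20 °C, a rise of at least 2.76. CML38 had 117.1 to 129.7 at 30 °C against 9.6 to 10.6 at 20 °C, a rise of at least 3.17 that was not called without the mutant array at 30 °C (adjusted p = 0.0995). Of the subtilases, 5 fell (2 to 3) and 0 rose; SBT1.3 had 64.3 to 75.6 at 30 °C against 232.6 to 253.0 at 20 °C, a change of -1.80 ± 0.19, and ARA12, the subtilase of seed mucilage, had 313.6 to 329.6 at 30 °C against 664.3 to 687.4 at 20 °C, a change of -1.07 ± 0.10. Of 22 serine carboxypeptidase-like genes, 6 fell (1 to 6) and 1 rose (0 to 1), with scpl35 at 41.7 to 48.2 at 30 °C against 112.2 to 125.3 at 20 °C.

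Some genes for chloroplast proteins were lower, but those outside the photosystem cores were not compared as a set. LYC, lycopene cyclase of carotenoid synthesis, had 200.3 in the mutant and 204.9 in wild type at 30 °C, against 446.1 in the mutant and 450.4 in wild type at 20 °C, a change of -1.15 ± 0.10 (limma adjusted p = 6.37e-05). CaS, the calcium-sensing protein of thylakoids, had 620.0 to 652.8 at 30 °C against 1323.6 to 1425.2 at 20 °C, a change of -1.11 ± 0.10. These 2 were named after their values were seen. Of 11 organelle editing factors and chlororespiration genes (OTP, CRR), 4 fell (1 to 3) and 0 rose; CRR42 had 26.5 to 32.2 at 30 °C against 90.3 to 92.4 at 20 °C, a change of -1.64 ± 0.17.

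Most probe sets called at 30 °C moved the opposite way between 30 and 40 °C. Of the 2711 probe sets higher at 30 than at 20 °C, 69.4% were lower at 40 than at 30 °C and 4.06% higher still. Of the 3769 lower at 30 °C, 61.1% were higher at 40 than at 30 °C and 5.62% lower still. These comparisons share the 30 °C arrays, so that a high or low 30 °C value enters both, and no test of their relation was made. EXO, for example, had 60.9 to 115.0 at 40 °C, below its 20 °C signals of 305.4 to 377.5, and GSTU20 1300.3 to 1442.5, above its 20 °C signals of 410.4 to 434.1. Against 20 °C itself, 28.1% of all probe sets were called at 40 °C.

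**Figure D4:**
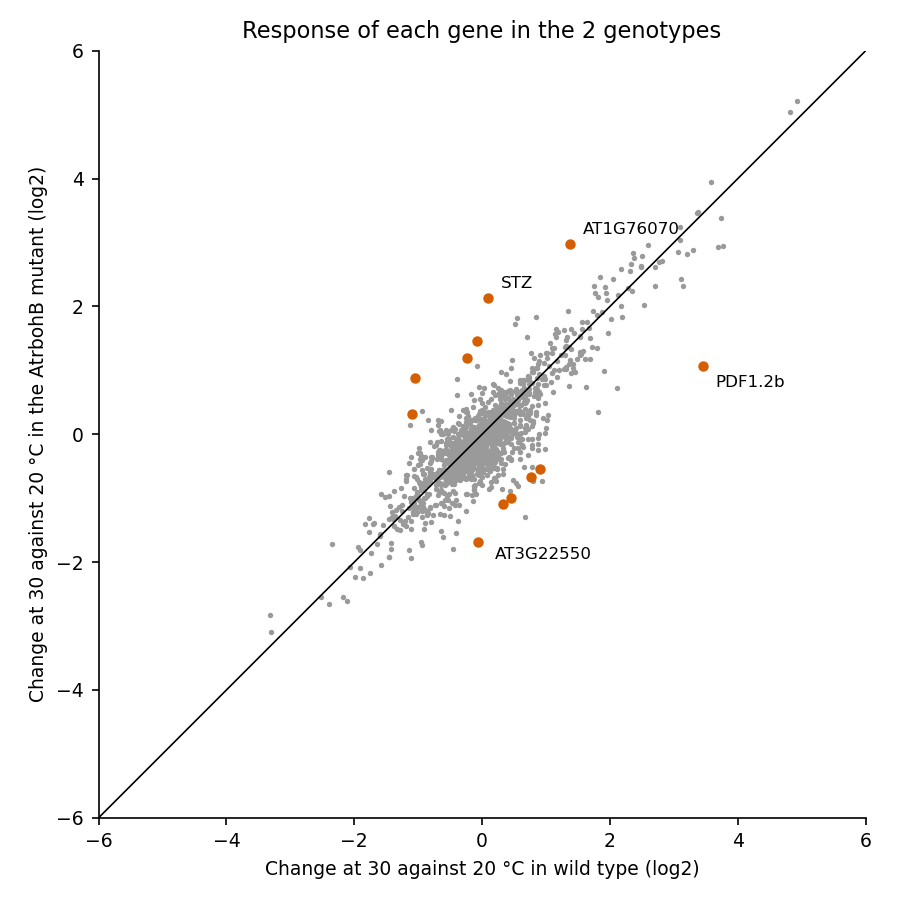
Change at 30 against 20 °C (log2) in the AtrbohB mutant (y axis) and in wild type (x axis) for the 1268 tested genes with a symbol (grey) and the 12 genes named for the largest genotype difference (orange, 4 of them labelled). The line marks equal change. STZ lies above it, with 2.13 in the mutant and 0.10 in wild type, and PDF1.2b below it, with 1.06 in the mutant and 3.45 in wild type.

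Single genes answered differently in the genotypes, as sizes without a test, since each genotype has 1 array per temperature. STZ, a zinc finger repressor of stress responses, had signals of 257.4 in the mutant and 183.4 in wild type at 30 °C, against 58.9 in the mutant and 171.6 in wild type at 20 °C. The lowest value was that of the mutant at 20 °C, and the change was 2.13 in the mutant and 0.10 in wild type. PDF1.2b had changes of 1.06 in the mutant and 3.45 in wild type. AT1G76070 had 143.0 in the mutant and 104.7 in wild type at 30 °C, against 18.2 in the mutant and 40.4 in wild type at 20 °C, again with the mutant lower at 20 °C. AT3G22550 had -1.68 in the mutant and -0.06 in wild type. The other genes with the largest differences, given with their values in the closing section, had signals under 100 on all 4 arrays.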

How the data were processed

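Gene expression was measured on 6 ATH1 arrays, 1 per genotype and temperature. The deposited table holds intensity values on a linear scale, on arrays that share a common level: the mean without the highest and lowest 2% of probe sets is 98.8 to 99.1 on each. The scaling, summary method and software are not given in the sources used here. Every column was mapped to a sample by its label.

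From this table, 64 control probe sets were left out of 22810. Of the rest, 13513 list 1 gene, 503 several and 8730 none, and 13436 of the first kind were matched to RefSeq by gene identifier. Signals under the 25th percentile of all arrays pooled (13.7) were raised to it, and the 18227 probe sets above it on at least 2 arrays were tested. Log2 values were fitted with limma 3.58.1 (R 4.3.3) on temperature and genotype over all 6 arrays, with a mean-variance trend (2 residual degrees of freedom, prior 6.08) and Benjamini-Hochberg adjustment over all 18227. Every adjusted p in the text is from limma, with the call threshold at 0.05. The fit was tested on simulated data. With 1 array per genotype and temperature, the residual spread is the departure of the arrays from additive effects of temperature and genotype. Array noise and genotype differences that vary with temperature, 40 °C included, enter it together and cannot be told apart. CML38 had changes of 3.24 in the mutant and 3.10 in wild type, yet an SE of 0.44. Its 40 °C signals were 82.1 in the mutant and 316.1 in wild type. Each array carried pooled plants, and nothing says that the arrays came from separate cultures. The p-values therefore measure only this spread, which may be technical. The number of arrays limits the precision.

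For a gene with several probe sets, the brightest was used. Genes named are the 20 largest rises and falls with 1 direction in both genotypes, up to 5 called and 2 uncalled members of a list, the tissue markers and the 6 largest genotype differences each way, given in part. The largest changes among genes with a symbol, and single genes outside the lists, were added after their values were seen. The members and the 78 gene lists, matched by symbol, were chosen with earlier results of these data known. Other settings tried were centring each array, quantile normalization, another floor or none, 16 added in place of the floor, other filters and variance priors, the 4 arrays alone, each genotype alone and each array left out. Promoter motifs and sequences were not analysed here. Figures were drawn with matplotlib 3.10.9.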

Additional observations from a re-analysis of the deposited data

Results flagged for a closer look

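Among the genes named, 14 moved in opposite directions in the genotypes between 30 and 20 °C. Each genotype has 1 array per temperature, so these differences were not tested. Values are the change in the mutant minus the change in wild type, on the log2 scale. Among the 12 genes with the largest differences, the mutant had the higher change for AT3G28550 (1.92), AT3G10930 (1.54), AT5G47380 (1.43) and AT1G20910 (1.42). The mutant had the lower change for rpoB (-1.45), a subunit gene of the plastid RNA polymerase, and for AT5G07590 (-1.44), AT1G75230 (-1.43) and AT3G10630 (-1.42). The signals behind these 8 differences were under 100 on all 4 arrays. Smaller differences were seen for Fes1B (-0.85), the root hair expansin EXPA18 (-0.74), the seed gene PAP85 (-0.46), the metallothionein MT1C (0.39), MYC3 (-0.28) and the clock gene GI (-0.27). None of these 6 genes was called at 30 °C over both genotypes.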

How the results depend on the processing

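Of 6480 probe sets called at 30 against 20 °C, 2711 were higher and 3769 lower. With all 6 arrays in the fit, the counts of calls under other scalings, floors, filters and variance priors stayed within 1.5 times, with 4621 calls without floor and filter the fewest and 6835 with 16 added the most. Centring each array on its median gave 3001 higher and 3153 lower. With only the 4 arrays at 30 and 20 °C, 2427 were lower. With 1 array left out, which leaves 1 residual degree of freedom, 2089 to 4340 were called, 1038 to 1930 of them higher and 1051 to 2412 lower, the fewest without the mutant at 30 °C. At least 2-fold changes numbered 2874 in the mutant alone and 2637 in wild type alone, without a test, beside 2545 called ones over both.

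Of 141 called genes named, 104 kept their call under every alternative that gave them a value, and 130 under every one that kept all 6 or the 4 arrays; none changed direction. Leaving out the mutant at 30 °C lost 34 of these calls. LEA4-5 lost its call without floor and filter (adjusted p = 0.233). STZ, not called over both genotypes, was called with a robust prior (adjusted p = 0.0432), with 16 added (0.0272), among probe sets above the floor on all 6 arrays (0.0171) and without wild type at 30 °C (0.0187). MT1C and GSTL3 were called after quantile normalization (adjusted p = 0.0105 and 0.0481).

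Genotype was a term of every fit. With all 4 arrays at 30 and 20 °C kept, these temperatures were compared within genotype. With 1 of the 4 left out, its place was in effect filled from the genotype difference at the other temperatures, 40 °C included. Without the mutant array at 30 °C, EXLA1 had a change of 3.18, below its 3.94 in the mutant and 3.58 in wild type. Beyond this, no paired analysis was possible because each group has 1 array. No gene named has several probe sets, so averaging them gave no value. Signals at the floor have no order, and 22.9% to 27.6% of probe sets lay there on an array.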

Other observations

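Glucosinolate and glucosidase genes, which the comparisons above leave out, also held calls. Over all probe sets, 14.9% were called higher and 20.7% lower. The counts of the 13 beta-glucosidases below do not set that family apart from these shares. Of 11 genes listed for glucosinolates, the mustard oil precursors, 4 fell (1 to 3), PYK10 among them, and 0 rose. GTR2, a glucosinolate carrier, had 70.4 to 80.5 at 30 °C against 127.1 to 132.2 at 20 °C, a change of -0.78 ± 0.17, and AOP1 had 37.9 to 48.5 at 30 °C against 84.5 to 98 at 20 °C, a change of -1.09 ± 0.18. JAL33, a jacalin lectin, had 659.8 to 666.0 at 30 °C against 1038.8 to 1073.2 at 20 °C, a change of -0.67 ± 0.10. Beta-glucosidases went both ways, with 3 of 13 higher (0 to 3, lowest without wild type at 30 °C) and 3 lower (1 to 2). BGLU25 had 166.5 to 169.2 at 30 °C against 59.4 to 74.6 at 20 °C, a change of 1.33 ± 0.20, against BGLU44, with 49.3 to 51.9 at 30 °C against 125.8 to 139.0 at 20 °C, a change of -1.39 ± 0.18.

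Of 9 tubulin, actin and microtubule genes, 3 fell (0 to 2) and 1 rose (0 to 1), with TUB1, a beta-tubulin, at 50.4 to 52.4 at 30 °C against 81.6 to 97.5 at 20 °C (a change of -0.80 ± 0.16). Of 12 ubiquitin-specific proteases, 3 fell (0 to 2) and 0 rose, with UBP24 at 104.8 to 106.3 at 30 °C against 170.2 to 175.6 at 20 °C (a change of -0.71 ± 0.12). DTX50, a carrier of the MATE family, had 53.1 to 54.4 at 30 °C against 3.6 to 9.1 at 20 °C, a rise of at least 1.97. Some of these calls were lost with 1 array left out: AOP1 without the mutant at 30 °C (limma adjusted p = 0.0759), BGLU25 without wild type at 30 °C (adjusted p = 0.0616), and GTR2 when the mutant at 30 or 20 °C or wild type at 30 or 20 °C was left out (highest adjusted p = 0.106). TUB1, UBP24 and DTX50 were each lost when the mutant at 30 °C or wild type at 30 or 20 °C was left out (highest limma adjusted p = 0.1, 0.066 and 0.114 in that order).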
